A study of Mus musculus with 2 samples.

Results

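The cells described here are the natural killer (NK) cells of whole mouse lung, taken as the cells to which the authors had given the name NK Cells. They numbered 659 of 18397 cells, of which 325 came from the control diet (CD) library and 334 from the high-fat diet (HFD) library. All of them belonged to 1 fine cluster, number 11, and that cluster held no cell of another type. NK cells were the 8th most numerous of the 17 named types.

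Both libraries were made from perfused lungs of female BALB/c mice that were 20 weeks old and had been put on their diet at 4 weeks of age, for 16 weeks. Energy in CD came to 13% from fat, to 60% from carbohydrate and to 27% from protein, and in HFD fat, from lard, made up 60%, carbohydrate 20% and protein 20%. The labels name no transgene and no other agent, and lungs were digested with Liberase and DNase and depleted of red blood cells without any sort for lymphocytes. No step against doublets is stated, and none was possible here. Each diet is 1 library, and how many mice went into it is not stated in the sources used here. Differences between animals can therefore not be estimated, no test was run, and the 95% intervals below cover counting error over cells alone.

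NK cells are innate lymphocytes that kill virus-infected and transformed cells without prior sensitisation. They weigh signals from activating receptors against signals from inhibitory receptors that bind class I histocompatibility molecules, and they kill through granules that hold perforin and granzymes. The lung is rich in NK cells that circulate through its capillary bed, and NK cells are known as a barrier to tumor cells that arrive in the lung through the blood. T cells are their closest counterpart in function, since cytotoxic T cells use the same granules, and T cells are used below as the cell type of comparison.

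The name NK Cells rests on the authors' reading of marker genes averaged over the fine cluster. Levels of single genes per cell were not analysed here, so the name could be compared only with the gene table, which marks the 1000 highly variable genes on which the map of the cells was built. The 3 markers used here all carried that mark. Ncr1 (ENSMUSG00000062524), which encodes an activating receptor found almost exclusively on NK cells and related innate lymphocytes, sits at chr7:4337724-4345164 (GRCm38, plus strand). Nkg7 (ENSMUSG00000004612), which encodes a membrane protein of cytotoxic granules shared with cytotoxic T cells, sits at chr7:43437073-43438249, also on the plus strand. Klrb1c (ENSMUSG00000030325), which encodes a lectin-like receptor, sits at chr6:128778485-128789215, on the minus strand. The mark was given over all cells of both libraries and says neither in which cells a gene was high nor whether it differed between diets.

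Genes of NK cell function were present in the gene table with a high share of such marks. Of 126 genes listed for NK cell receptors, killing, regulation, signals and trafficking, 121 were matched, and 59 of these were marked highly variable (48.8%), against 5.19% of all 19278 genes. None of the matched genes carried the authors' mitochondrial, ribosomal or cell cycle mark. The lists were drawn up from known biology and hold genes that vary between cell types, and other lung cells express many of them, so the count describes the lists and is no measure of NK cells alone.

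Of the 25 matched receptor genes, 17 were marked. They included Klrk1, an activating receptor for stress-induced ligands, together with Klrd1, Klrc1 and Klrc2, whose products pair as receptors for a non-classical class I molecule. Klra3, Klra7 and Klra9 of the Ly49 receptors for class I molecules, the related lectin-like receptors Klre1, Klri2, Klrb1a and Klrb1f, and the inhibitory receptor Klrg1 were marked as well. The remaining marked receptors were Ncr1, Klrb1c, Cd244a, Cd226 and Fcgr3, the last of which is the Fc receptor for antibody-dependent killing. The table held 23 genes whose symbol begins with Klr, 15 of them marked. Without Klrg1 and Klrg2, the other 21 lay together on chromosome 6 between 128609227 and 131247362 in GRCm38, the region known as the NK gene complex. Of the 41 genes of the table in this stretch of 2.64 Mb, 18 were marked (43.9%), of which 14 were Klr genes. The Ly49 genes are near copies of one another and their number differs between mouse strains, while the reads of these BALB/c mice were mapped to an assembly of another strain, so the marks of single Klra genes are uncertain.

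Of the 19 matched granule genes, 11 were marked. These were Prf1, which encodes perforin, the granzymes Gzma and Gzmb, the granule proteoglycan gene Srgn, Nkg7, the cathepsins Ctsw and Ctsd, Stx11 of the fusion machinery, the death ligand Fasl, and the protease inhibitors Serpinb9 and Serpinb6b. All but 2 of the 10 cytokine and chemokine genes were marked, namely Ifng, Tnf, Xcl1, Ccl3, Ccl4, Ccl5, Csf2 and Ltb. Of the 15 matched transcription factors 3 were marked, namely Eomes, which drives NK cell maturation, Irf8 and Gata3. Among the 16 cytokine receptors 4 were marked, namely Il2rb, the chain shared by the receptors for IL-2 and IL-15, Il2ra, Il18rap and Il7r. Of the 14 matched signalling genes 2 were marked, Tyrobp and Fcer1g, both adaptors of activating receptors. Among the 22 trafficking genes 14 were marked, among them the chemokine receptors Cx3cr1, Cxcr3, Cxcr6, Ccr2 and Ccr7, the adhesion molecules Itgam, Itga1, Itga4, Itgal and Spn, the retention molecule Cd69, and Ly6c2. Of 12 genes of the T cell receptor complex and its co-receptors, 10 were marked as well (Cd3e, Cd3d, Cd3g, Trac, Trbc1, Trbc2, Trdc, Cd8a, Cd8b1 and Cd28).

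On the map of all cells, NK cells formed an island of their own, apart from T cells. UMAP places cells with similar expression near each other in a plane without units, and since the fine clusters were drawn in that plane, the separation is what the name was built on and is given as a description. The median NK cell lay at 0.569 on the x axis and 1.89 on the y axis, and the median T cell at 0.317 and 1.33, a distance of 0.611 on a map that spans 1.82 by 2.05. The median NK cell lay 0.0213 from the centre of the NK island, whereas the median T cell lay 0.0679 from the centre of the 6 T cell clusters. The smallest distance between an NK cell and a T cell was 0.413. By their centres, ciliated cells were nearer (0.287) than T cells, and long distances on such a map have no fixed meaning.

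All of the 15 nearest neighbours of every NK cell were NK cells, and so were the nearest 5 and the nearest 50. Outside the island, the cell closest to any of the 659 NK cells belonged to cluster 51, which the authors left without a name. That cluster held 8 CD and 10 HFD cells with a median of 6608 UMIs (unique molecular identifiers, which count captured RNA molecules) and 2445.5 detected genes per cell, both above the medians of NK cells in either library.

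The NK island took up both libraries in the same place. The centre of the CD cells and that of the HFD cells lay 0.000963 apart, compared to 0.0116 for T cells. HFD cells made up 50.7% of all NK cells, 50.5% of the 15 nearest neighbours of CD NK cells and 51.9% of those of HFD NK cells. For T cells these values were 50.5%, 48.7% and 53.1%.

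**Figure D1:**
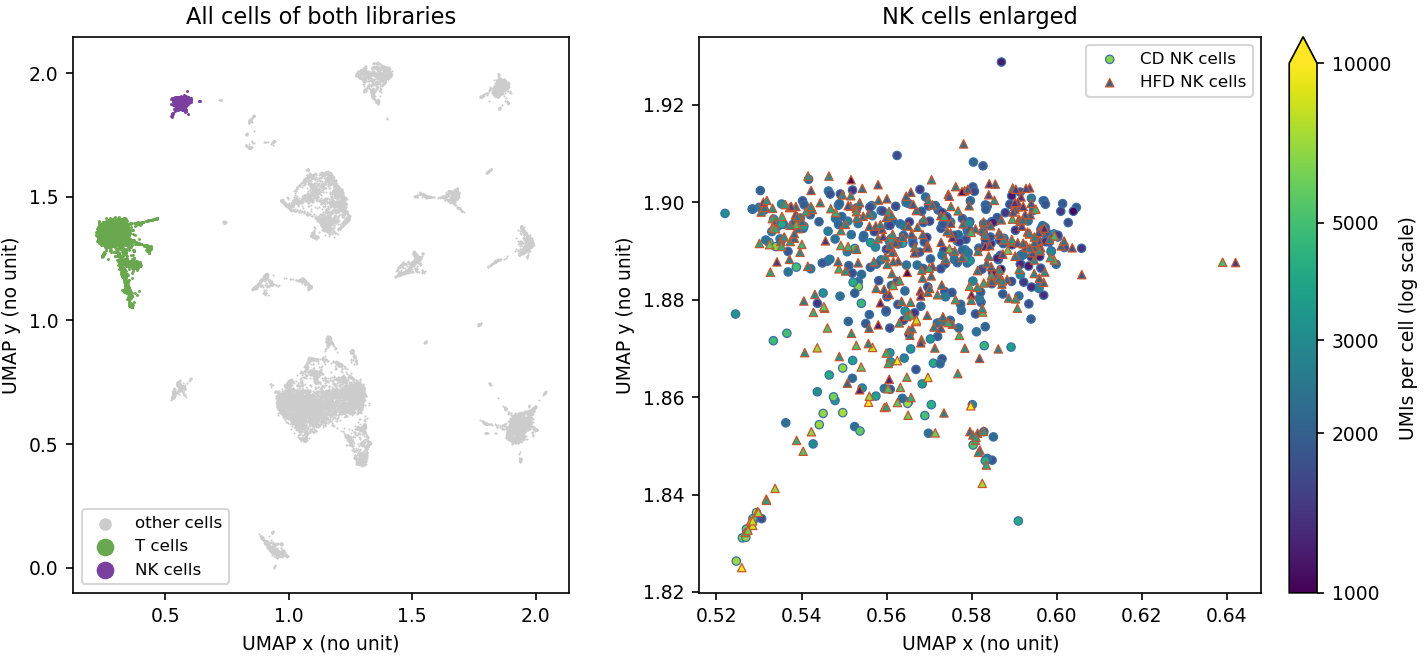
UMAP x and y coordinates (no unit) of all cells of both libraries on the left, with NK cells in purple, T cells in green and other cells in grey, and of the 659 NK cells on the right, with circles for CD, triangles for HFD and colour for UMIs per cell on a log scale. NK cells lay 0.611 from T cells by their median positions, both libraries covered the same island, and cells of more UMIs lay towards its lower left.

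The first comparison asked whether the number of NK cells differed between diets. NK cells made up 3.70% of CD cells (3.31–4.11) and 3.48% of HFD cells (3.12–3.86), a ratio of 0.941 (0.805–1.10). The intervals overlapped and the ratio interval included 1. Among immune cells the share was 8.68% in CD (7.80–9.63) and 8.89% in HFD (8.0–9.85), which gave a ratio of 1.02 (0.876–1.20). Among T, B and NK cells together it was 12.2% in CD (11–13.5) and 12.8% in HFD (11.5–14.1). A difference in NK cell share was not detectable at these cell numbers, and the interval of the ratio reached from a fall to 0.805 to a rise to 1.10.

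The number of NK cells per T cell was close in both libraries. There were 1411 T cells in CD and 1439 in HFD, so that NK cells per T cell came to 0.230 in CD (0.204–0.260) and 0.232 in HFD (0.205–0.262). The ratio of HFD to CD was 1.01 (0.848–1.20), which corresponds to 4.34 T cells per NK cell in CD and 4.31 in HFD. Against single T cell clusters the ratio went from 0.778 (0.447–1.34) for cluster 43, the smallest, to 1.28 (1.00–1.64) for cluster 17, which numbered 257 cells in CD and 206 in HFD. For the other 4 T cell clusters it lay between 0.900 and 1.02, each with an interval that included 1. NK cells per B cell numbered 0.354 in CD (0.311–0.402) and 0.398 in HFD (0.349–0.452), and the ratio of 1.12 (0.936–1.35) again included 1. NK cells per neutrophil, per monocyte and per dendritic cell had ratios of 0.982, 0.903 and 0.982, each with an interval that included 1.

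NK cells of the HFD library held more UMIs per cell than those of the CD library. In CD, UMIs per NK cell ranged from 1008 to 7955 with a median of 2097 (2018–2193) and quartiles of 1761 and 2692. In HFD they ranged from 1019 to 24086 with a median of 2717 (2539–2866) and quartiles of 2173 and 3625.75. The ratio of medians was 1.30 (1.16–1.42) and the intervals did not overlap. Most single cells of both libraries lay within the range that both shared, although HFD reached further up. The HFD value was higher at each percentile computed, by 1.11 times at the 5th, 1.24 times at the 10th, 1.35 times at the 75th and 1.31 times at the 95th. UMIs outside mitochondrial genes gave a ratio of 1.28 (1.16–1.40).

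Of the other 16 named types, 13 had a higher median of UMIs in HFD, 6 of them with an interval of the ratio above 1, and 3 had a lower one. The 3 lower ratios were 0.949 (0.895–1.02) for endothelial cells, 0.941 (0.852–1.07) for fibroblasts and 0.754 (0.513–1.15) for AT1 cells, each with an interval that included 1. For T cells the median was 3518 UMIs under CD (3449–3569) against 3927 under HFD (3844–4014), and the ratio was 1.12 (1.08–1.16). Relative to T cells of the same library, the ratio for NK cells was 1.16, and its interval (0.995–1.32) included 1. NK cells had the highest of the ratios of the 17 named types, but monocytes followed with 1.26 (1.13–1.44) and neutrophils with 1.24 (1.16–1.34), and these intervals overlapped that of NK cells. With 1 library per diet, a higher RNA content of the cells and a higher capture or sequencing depth of the library cannot be told apart.

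The HFD library held fewer NK cells of low depth and more of high depth. Cells under 2000 UMIs were 141 of the 325 NK cells in CD (43.4%, 37.9–49.0) and 63 of the 334 in HFD (18.9%, 14.8–23.5). Cells from 2000 to under 3000 UMIs were 36.3% in CD (31.1–41.8) and 40.1% in HFD (34.8–45.6). Cells of 3000 UMIs or more were 66 in CD (20.3%, 16.1–25.1) and 137 in HFD (41.0%, 35.7–46.5). Of T cells, 7.23% in CD (5.93–8.71) and 6.81% in HFD (5.56–8.24) had under 2000 UMIs, and these intervals overlapped. T cells of 3000 UMIs or more were 68.8% (66.3–71.2) in CD against 76.5% (74.2–78.7) in HFD, and B cells 30.6% (27.6–33.7) against 40.6% (37.3–44.0), so that more cells of high depth in HFD were also seen in these types. Of B cells, 20.5% (17.9–23.2) were under 2000 UMIs in CD against 10.6% (8.60–12.9) in HFD, and of neutrophils 72.5% (67.5–77.0) against 44.7% (39.7–49.9), so that a lower share of shallow cells in HFD was also seen in those types.

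**Figure D2:**
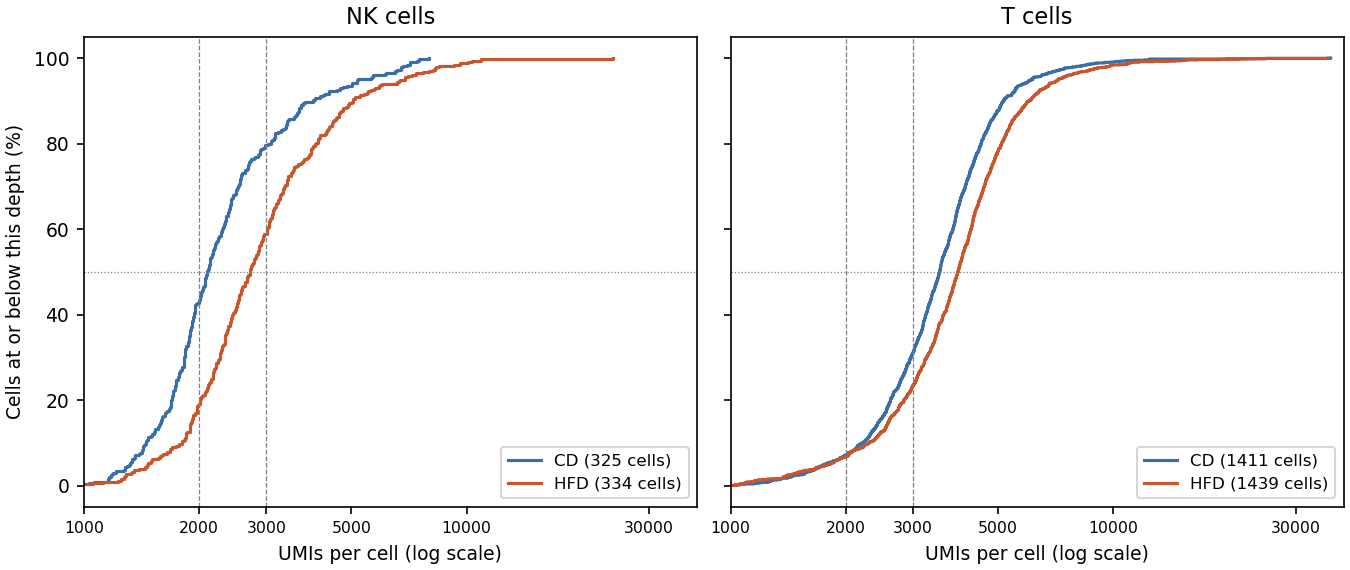
Percent of cells at or below a number of UMIs per cell (x axis, log scale) for NK cells on the left and T cells on the right, in CD (blue) and HFD (orange), with dashed lines at 2000 and 3000 UMIs and a dotted line at 50%. The NK curves stood apart already at 2000 UMIs (43.4% against 18.9%), where the T cell curves met (7.23% against 6.81%). At 3000 UMIs the T cell curves also stood apart, with 68.8% of CD and 76.5% of HFD cells at or above it.

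The ratio of NK cell shares between diets depended on the depth required of a cell. With all cells, which had at least 1000 UMIs, it was 0.941. With at least 1500 UMIs it was 1.02 (0.866–1.20). With at least 2000 UMIs NK cells were 2.66% of CD and 3.56% of HFD cells, and the ratio was 1.34 (1.11–1.62). It was 1.70 (1.33–2.18) at 2500 UMIs and 1.80 (1.33–2.45) at 3000 UMIs. NK cells per T cell moved likewise, with a ratio of 1.44 (1.17–1.77) at 2000 UMIs and 1.83 (1.34–2.53) at 3000 UMIs, and of 1.45 (0.923–2.32) at 4000 UMIs, where 32 CD and 69 HFD NK cells were left. The T cell share had a ratio of 0.931 at 2000 UMIs and 0.983 at 3000 UMIs, both with intervals that included 1, and of 1.21 (1.08–1.37) at 4000 UMIs. Of all UMIs of a library, NK cells held 1.91% in CD and 2.12% in HFD, whereas T cells held 12.4% and 11.9%.

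**Figure D3:**
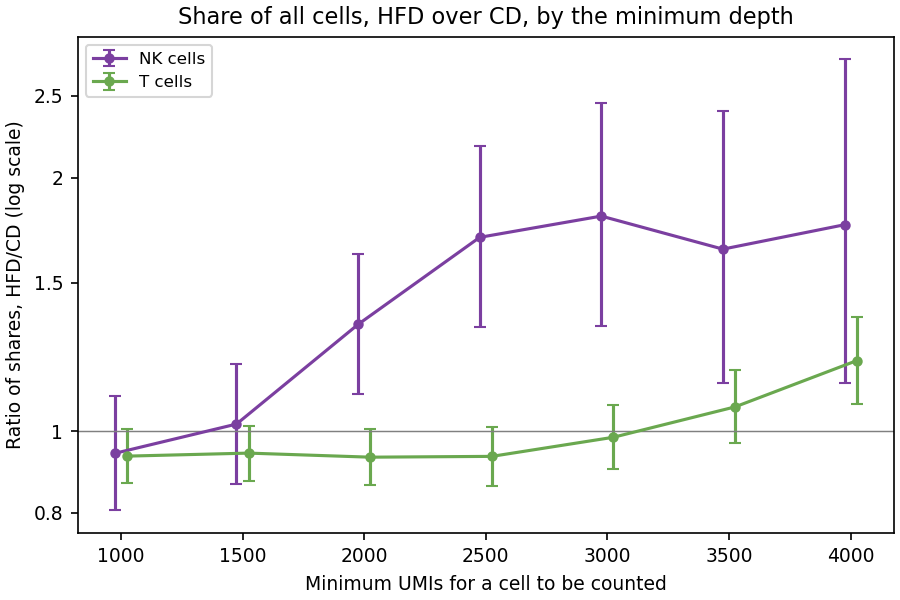
Ratio of the share of all cells in HFD to that in CD (y axis, log scale) against the minimum UMIs for a cell to be counted, for NK cells (purple) and T cells (green), with 95% intervals for counting error. The NK ratio moved from 0.941 with all cells to 1.80 at 3000 UMIs, and the T cell ratio from 0.934 to 0.983 over the same range. At 3500 and 4000 UMIs the NK ratio was 1.64 and 1.76, and the T cell ratio 1.07 and 1.21 (1.08–1.37 at 4000).

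NK cells of the HFD library also showed more detected genes per cell. The median was 1077 genes in CD (1044–1114; quartiles 936 and 1262) and 1262 in HFD (1235–1304; quartiles 1089 and 1513.75), and the ratio was 1.17 (1.11–1.25). Genes per UMI, which falls as a cell is read more deeply, had a median of 0.509 in CD (0.500–0.516) and 0.469 in HFD (0.461–0.478). Neither pair of intervals overlapped. Both measures move with depth, and across NK cells the rank correlation of UMIs with genes per UMI was -0.88 in CD (325 cells) and -0.90 in HFD (334 cells), where the points share a library and UMIs enter both measures.

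At like depth, no difference in detected genes between diets was detectable. Within windows of UMIs, the median number of genes was 1128 in CD and 1143.5 in HFD from 2000 to under 2500 UMIs (ratio 1.01, 0.973–1.06), and 1248 and 1279 from 2500 to under 3000 UMIs (ratio 1.02, 0.980–1.07). Over all 6 windows from 1000 to 7000 UMIs the ratio ranged from 0.904 to 1.02, was above 1 in 3, and its interval included 1 in each. The ratio of 0.904 stood in the window from 4000 to under 7000 UMIs, where depth itself was not matched and the ratio of median UMIs was 0.906. In the other 5 windows the ratio of median UMIs lay between 0.978 and 1.03. The window from 1000 to under 1500 UMIs rested on 19 HFD cells.

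NK cells showed more genes than T cells of like depth. Without matching for depth, an NK cell had fewer UMIs than a T cell, with a ratio of medians of 0.596 (0.565–0.636) in CD and 0.692 (0.633–0.746) in HFD, and the ratio of detected genes was 0.898 (0.859–0.946) in CD and 0.960 (0.929–1.01) in HFD. From 2000 to under 2500 UMIs, however, CD NK cells had 1128 genes (1101–1142) and CD T cells 925 genes (901–956). In HFD these values were 1143.5 (1111–1165) and 934 (915–974). In the 5 windows under 4000 UMIs, where the NK to T ratio of median UMIs lay between 0.943 and 1.06, the NK to T ratio of genes ranged from 1.12 to 1.22 over both libraries. From 4000 to under 7000 UMIs it was 1.19 in HFD at a UMI ratio of 0.981, and 1.35 in CD, where NK cells also had 1.12 times the UMIs of T cells. The intervals overlapped in 1 of the 12 comparisons, HFD at 1000 to under 1500 UMIs (758, 695–807, over 19 NK cells against 676.5, 643–701, for T cells). Without matching for depth, genes per UMI of NK cells were the highest of the 10 immune types in both libraries. Among all types NK cells ranked 2nd from the top in CD and 4th in HFD, with intervals that overlapped those of endothelial cells (0.500) in CD and AT1 cells (0.475) in HFD. NK cells also had the 2nd lowest median UMIs of the 17 types in both libraries. In HFD their interval overlapped those of B cells, the next type upwards, and of endothelial cells, AT1 cells and pericytes. The part of depth in these ranks was not tested.

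**Figure D4:**
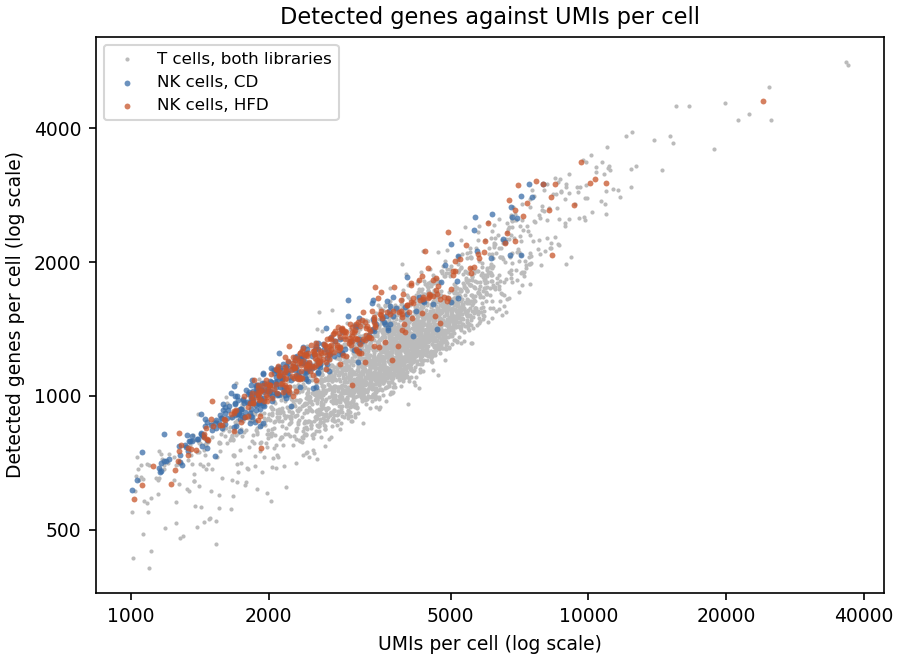
Detected genes against UMIs per cell, both on log scales, for NK cells of CD (blue) and HFD (orange) and T cells of both libraries (grey). NK cells of both diets followed the same course and lay along the upper side of the T cells, with 1.12 to 1.22 times the T cell median of genes within the 5 windows under 4000 UMIs.

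The mitochondrial percent of NK cells was low and was higher in HFD. It is the percent of the UMIs of a cell that come from mitochondrially encoded protein-coding genes. In CD it ranged from 0.0565% to 11.3% with a median of 1.95% (1.84–2.04) and quartiles of 1.48% and 2.63%. In HFD it ranged from 0.625% to 18.8% with a median of 2.28% (2.16–2.40) and quartiles of 1.73% and 3.00%. The ratio was 1.17 (1.06–1.31) and the intervals did not overlap. T cells stood higher, with 3.17% in CD (3.12–3.25) and 3.31% in HFD (3.24–3.39), and their ratio was 1.04 (0.997–1.08). Relative to T cells of the same library, the NK ratio was 1.12, and its interval (0.978–1.31) included 1. Of the other 16 named types, 12 had a higher median in HFD and 4 a lower one. The interval of the ratio lay above 1 in 4 of them, at 1.06 (1.01–1.11) for endothelial cells, 1.13 (1.05–1.21) for fibroblasts, 1.16 (1.01–1.33) for macrophages and 1.11 (1.00–1.24) for pericytes. NK cells had the 3rd lowest median of the 17 types in both libraries, above neutrophils and basophils. The next type upwards was monocytes, whose interval overlapped that of NK cells in HFD and did not in CD.

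In absolute numbers, the median NK cell held 40 mitochondrial UMIs in CD (37–42) and 62 in HFD (57–70). Cells over 5% mitochondrial UMIs were 12 of the NK cells in CD (3.69%, 1.92–6.36) and 23 in HFD (6.89%, 4.42–10.2), and cells over 10% were 3 and 9, with overlapping intervals in both cases. Cells under 1% were 27 in CD (8.31%, 5.55–11.9) and 13 in HFD (3.89%, 2.09–6.56), with intervals that also overlapped. Overlap of separate intervals does not show that the shares are alike. With at most 10% mitochondrial UMIs per cell the ratio was 1.15 (1.06–1.31).

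Mitochondrial percent and depth were weakly related across NK cells. The rank correlation across cells was 0.37 in CD and 0.29 in HFD, where UMIs are also the denominator of the percent, and for T cells it was 0.07 and 0.04. Within windows of UMIs the intervals of both libraries overlapped. From 1500 to under 2000 UMIs the medians were 1.75% in CD (1.59–1.93) and 1.87% in HFD (1.61–2.24). From 2000 to under 2500 UMIs they were 1.86% (1.74–2.00) and 1.95% (1.66–2.17). From 4000 to under 7000 UMIs CD was higher, with 3.25% (2.63–4.05) against 2.74% (2.45–3.21), and also had more UMIs (median 5161 against 4676.5). HFD was higher in 3 of the 6 windows and CD in the other 3, and every ratio interval included 1. In the lowest window the medians were 1.81% (1.39–2.01) over 38 CD cells and 3.47% (1.86–6.81) over 19 HFD cells, a ratio of 1.92 (0.925–4.91), and the HFD median was the highest of the 6 HFD windows. The NK median was below the T cell median in all 12 comparisons by window and library, at ratios from 0.542 to 0.990. The intervals overlapped in 3 of them, which were HFD at 1000 to under 1500 UMIs and CD at 3000 to under 4000 and at 4000 to under 7000 UMIs.

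**Figure D5:**
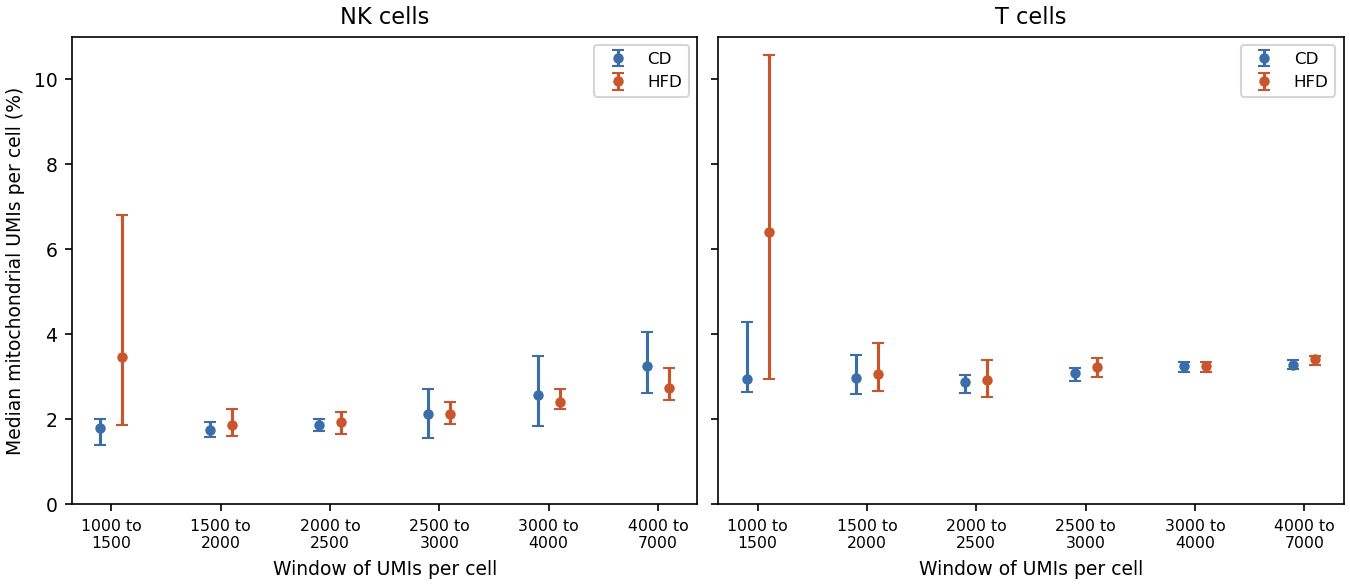
Median mitochondrial percent per cell within 6 windows of UMIs per cell, for NK cells on the left and T cells on the right, in CD (blue) and HFD (orange), with order-statistic 95% intervals. NK medians ranged from 1.75% to 3.25% in CD, highest in the deepest window, and from 1.87% to 3.47% in HFD, highest in the shallowest window (19 cells), and the intervals of the diets overlapped in each window.

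Within the NK island, depth changed with position. The island was divided by its x coordinate into 3 parts of equal cell number, which held 109, 108 and 108 CD cells and 111, 111 and 112 HFD cells. In CD the median went from 2502 UMIs (2325–2796) in the left part to 2094 (1915–2187) in the middle and 1873.5 (1737–1948) in the right part. In HFD it went from 3114 (2866–3401) to 2597 (2431–2901) and 2428 (2217–2716). HFD was higher than CD in each part, with intervals that did not overlap. The mitochondrial percent went from 2.29% (2.07–2.56) on the left to 1.57% (1.44–1.76) on the right in CD, by way of 1.97% (1.79–2.07) in the middle. In HFD it was 2.56% (2.31–2.74) on the left, 2.10% (1.90–2.43) in the middle and 2.15% (1.88–2.30) on the right. Across cells, the rank correlation of UMIs with the x coordinate was -0.42 in CD and -0.31 in HFD, and with the y coordinate -0.32 and -0.42. Position was computed from the expression of the same cells, so these values describe the map.

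Across the series, the 8793 CD cells held 42470977 UMIs in all and the 9604 HFD cells 50679251. Of the cell barcodes, 27 occurred in both libraries. NK cells of CD carried 2 of these, and the matching HFD cells were not NK cells. Without the shared barcodes the NK share ratio was 0.946 (0.810–1.11) and the ratio of median UMIs 1.29 (1.15–1.41).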

How the data were processed

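Reads had been mapped by the authors to mm10 (GRCm38.p6) with Cell Ranger, and they merged both libraries in Seurat (version 4.1.0 in the submitters' processing notes) before conversion for Monocle. Stated limits were at most 20% mitochondrial RNA, at least 500 UMIs and at least 250 genes per cell, and the lowest UMI count found among the deposited cells was 1000. Cells of both libraries were clustered together in the UMAP plane after 50 principal components of 1000 highly variable genes. The droplet kit is a 3' kit in the labels and a 5' kit in the methods. The deposited table gives, per cell, counts of UMIs and detected genes without normalization, the percent of mitochondrial UMIs, and UMAP coordinates, which are a score without a unit, as made by the authors. The deposited gene table gives yes-or-no marks.

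Cells were grouped by the library name in each row. NK and T cells were those so named by the authors. Shares were given exact Clopper-Pearson 95% binomial intervals, ratios of shares an exact binomial interval given the summed NK cells, and NK cells per T cell a conditional exact odds ratio interval. Medians were given order-statistic intervals, and a ratio of medians the outer bounds of both. A ratio relative to T cells was given the outer bounds of both ratios. Such outer bounds are wider than a 95% interval. Nothing was tested, since each diet has 1 library and cells are not replicates. Thinning of cells to a common depth and doublet calling need values of single genes, so genes and mitochondrial percent were compared within windows of UMIs with bounds at 1000, 1500, 2000, 2500, 3000, 4000 and 7000. The calculations were tested on simulated libraries. Gene positions were taken from GENCODE M21 (GRCm38). Listed genes that could not be matched to the gene table by symbol (Klra6, Klra8, Gzmf, Zfp683 and Sh2d1b2) were not analysed here. The rule for named genes was to name the 3 markers and every listed gene marked highly variable, some of which are not reported here. Alternatives were limits on mitochondrial percent, UMIs and genes, leaving out the 1% of cells of highest UMI count, other denominators and reference types, and other summaries. The members, lists and comparisons were chosen with earlier results of these data known. Tools were Python 3.11.15 with scipy 1.17.1, numpy 2.4.6, pandas 2.3.3 and matplotlib 3.10.9.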

Additional observations from a re-analysis of the deposited data

How the results depend on the processing

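Of 96 alternative values, 59 lay inside the interval first reported, and 2 more, for the nearest neighbours, equalled a value without an interval. Of the ratios, 20 lay on the other side of 1, 11 of them for medians whose reported interval left out 1. The NK share ratio, reported as 0.941, stayed between 0.870 and 1.04 under 26 alternatives. Among them was the removal of each other type in turn (0.897–0.967), which leaves the NK cell counts unchanged. The share of annotated cells and the removal of unannotated cells are the same calculation, entered as separate alternatives. NK cells per T cell, reported as 1.01, stayed between 0.962 and 1.12 under 12 alternatives. The 1.12 was NK cells per B cell, a different ratio, and with T cells as reference the highest of the 12 was 1.08. A minimum depth moved the NK share ratio and NK cells per T cell. The share ratio was 1.34, 1.70, 1.80, 1.64 and 1.76 with at least 2000, 2500, 3000, 3500 and 4000 UMIs, and NK cells per T cell had ratios of 1.44, 1.82, 1.83, 1.54 and 1.45. The minimums of 1500, 2500, 3500 and 4000 UMIs, the removal of shared barcodes, the UMIs outside mitochondrial genes and the scaling to T cells were chosen after seeing the data. The minimum removes 141 CD and 63 HFD NK cells at 2000 UMIs and 259 and 197 at 3000 UMIs. It removes cells of other types as well, and the cause of the change in the ratios was not tested.

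With at least 2000 UMIs the HFD to CD ratio of genes was 1.09, of genes per UMI 0.973 and of mitochondrial percent 1.05. With at least 3000 UMIs the ratio of UMIs was 1.03, of genes 1.01, of genes per UMI 0.986 and of mitochondrial percent 0.918. Within the 6 windows of UMIs, from the lowest up, the ratio of genes was 0.967, 1.01, 1.01, 1.02, 0.979 and 0.904, that of genes per UMI 0.971, 0.990, 1.01, 1.02, 1.02 and 1.01, and that of mitochondrial percent 1.92, 1.07, 1.04, 1.00, 0.939 and 0.842. Minimums cut the lower range of depth. Windows under 4000 UMIs held the ratio of median UMIs between 0.978 and 1.03, but in the highest window it was 0.906. The cause of the changes in these ratios was not tested. Taking mean positions moved the distance between NK and T cells on the map from 0.611 to 0.631, and the cause was not tested. The minimum of 500 genes removed no NK cell and says nothing about stability. Leaving out the 1% of cells of highest UMI count removed 1 HFD NK cell and none of CD, and says little about it. Leaving out single fine clusters of NK cells was not run, since there is 1. No paired analysis was possible because a diet is represented by 1 library alone. The number of NK cells limited the share ratio to an interval of 0.805 to 1.10.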

Other observations

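A small tail of cells at the lower left end of the NK island, bounded by eye after the map had been seen, held 21 NK cells, 9 from CD (2.77% of CD NK cells, 1.27–5.19) and 12 from HFD (3.59%, 1.87–6.19). These cells held more UMIs and detected genes than the rest of the island. Their medians were 6757 UMIs and 2667 genes, compared to 2343.5 UMIs and 1160.5 genes in 630 other NK cells, and the cause was not tested. The remaining 8 cells, 4 from each library, lay at the lower right end, with a median of 3574.5 UMIs. Within the tail the median was 6165 UMIs in CD and 6958 in HFD. It held 18 of the 101 NK cells with 4000 UMIs or more, and the NK cell with the most UMIs of all (24086 UMIs and 4611 genes, HFD). Without the cells of either end the ratio of median UMIs between diets was 1.28 (1.16–1.40). The genes that these cells express were not analysed here.

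The deepest NK cells differed between libraries in their range. The 5 CD cells with the most UMIs held from 7118 to 7955 UMIs, and the 5 HFD cells with the most held from 9632 to 24086. NK cells of 7000 UMIs or more were 5 in CD (1.54%, 0.501–3.55) and 15 in HFD (4.49%, 2.54–7.30). These intervals overlapped, which does not show that the shares are alike.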
